A study of Mus musculus with 4 samples.

Results

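The genes described here are *Rgs5* and 6 other genes of G protein regulation, *Rgs4*, *Rgs2*, *Rgs16*, *Rgs3*, *Rgs6* and *Rgs7bp*, in mouse lungs 14 days after bleomycin. These 7 of the 32286 genes measured were chosen by the level of several of them in mural cells of these same libraries, and *Rgs5* is also a gene that the study named as a mark of activated pericytes. Levels across cell classes are therefore a description and carry no test. The lungs came from 2 wild-type (WT) littermates and 2 *Tubb3*-/- mice, all given bleomycin into the trachea at 0.8 U/kg, a dose of an agent that injures the lung and leads to fibrosis. The *Tubb3*-/- mice were homozygous for a *Cre* gene knocked in at the start codon of *Tubb3*, which encodes β-III tubulin, so that every cell lacked it and not pericytes alone. The mice of the study were 8 to 11 weeks old. No uninjured lung is among these libraries. Each mouse gave a whole-cell library, depleted of red cells with TER-119 and sorted for live cells, and a mural-enriched library, depleted with CD31, CD45, EpCAM and TER-119, in which MCAM+ PDGFRα- cells and MCAM- cells were sorted and mixed in equal parts. Cells carried a tag for their mouse, and the 4 tagged samples of a kind were pooled before capture.

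Receptors coupled to heterotrimeric G proteins pass on the signals of endothelin, angiotensin, thrombin and other agents that set vessel tone. An active Gα subunit stays on until it hydrolyses its GTP, and regulators of G protein signaling (RGS proteins) speed that step and so shorten the signal. *Rgs2*, *Rgs3*, *Rgs4*, *Rgs5* and *Rgs16* belong to the small R4 family, which acts on Gαi and Gαq, with *Rgs2* preferring Gαq. *Rgs6* is of the R7 family, whose members pair with the Gβ subunit *Gnb5*, and *Rgs7bp* encodes a palmitoylated protein that anchors R7 proteins at the membrane. *Rgs5* is a widely used marker of pericytes, the contractile cells that wrap capillaries, and of arterial smooth muscle.

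*Rgs5*, *Rgs4*, *Rgs2* and *Rgs16* lie on chromosome 1 (coordinates of GENCODE vM21, GRCm38). *Rgs5* is at chr1:169655501-169695813 on the plus strand, and *Rgs4* is at chr1:169741477-169747642 on the minus strand, 45663 bases away. *Rgs2* (chr1:143999338-144004161, minus strand) and *Rgs16* (chr1:153740349-153745468, plus strand) are further away. *Rgs3* is at chr4:62559847-62704001 (plus), *Rgs6* at chr12:82588292-83162056 (plus) and *Rgs7bp* at chr13:104945904-105054930 (minus). *Rgs16* and *Rgs3* each overlap 1 antisense gene, and *Rgs6* overlaps 6 noncoding loci on the other strand and 1 on its own, so that the counts of these genes are uncertain to that extent. The 250 bases before the RefSeq start (GRCm38.p6) are shown for the neighbours *Rgs5* and *Rgs4*, whose levels across the classes are the most alike among the 7 genes, and for *Rgs6*, whose window holds matches to a searched motif. Capitals mark those matches, and each sequence is written 5′ to 3′ on the gene's own strand, *Rgs5* from chr1:169655251-169655500 (plus), *Rgs4* from chr1:169747643-169747892 (minus) and *Rgs6* from chr12:82617249-82617498 (plus).
Rgs5: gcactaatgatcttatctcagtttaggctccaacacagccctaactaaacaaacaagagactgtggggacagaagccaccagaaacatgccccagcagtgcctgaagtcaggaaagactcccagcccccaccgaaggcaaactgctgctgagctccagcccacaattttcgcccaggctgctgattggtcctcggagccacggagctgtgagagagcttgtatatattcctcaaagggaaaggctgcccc
Rgs4: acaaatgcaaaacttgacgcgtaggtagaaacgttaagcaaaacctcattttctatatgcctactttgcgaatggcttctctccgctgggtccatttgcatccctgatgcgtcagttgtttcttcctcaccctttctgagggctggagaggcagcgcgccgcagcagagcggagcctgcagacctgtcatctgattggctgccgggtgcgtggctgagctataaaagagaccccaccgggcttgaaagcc
Rgs6: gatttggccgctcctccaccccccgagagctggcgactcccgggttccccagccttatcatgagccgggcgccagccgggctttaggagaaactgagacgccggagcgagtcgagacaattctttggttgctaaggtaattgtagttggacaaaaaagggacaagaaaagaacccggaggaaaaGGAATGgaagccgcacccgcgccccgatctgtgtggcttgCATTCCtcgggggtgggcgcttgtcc
Cores of motifs of factors known from mural cells were searched on both strands, namely TGGGAA (RBPJ), ACGTG (hypoxia response element), CATTCC (TEAD) and the CArG box of serum response factor. The *Rgs6* window held the TEAD core at -66 to -61 on the opposite strand and at -26 to -21 on the gene's strand, and 12.6% of all 32851 windows held that core. One of the windows of *Rgs3* held the RBPJ core, which 21.6% of all windows held. The windows of *Rgs5*, *Rgs4*, *Rgs2*, *Rgs16* and *Rgs7bp* held none of these letters, where 16.6% of all windows held the hypoxia element core and 1.47% the CArG box.

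Of 32121 cells, 30860 passed the limits on genes and mitochondrial UMIs, and 22486 met 1 of 5 gates. The gates were pericytes (a UMI of at least 2 of *Higd1b*, *Cox4i2* and *Ndufa4l2*), smooth muscle (at least 3 UMIs of *Myh11* and fewer than 2 of those genes), fibroblasts (*Pdgfra*), endothelium (*Cdh5*) and immune cells (*Ptprc*). They held 1089, 3942, 8165, 3090 and 6200 cells, 6044 cells met several gates and 2330 met none. Gene UMIs per library ranged from 41462258 to 95036340, and 59 barcodes occurred in both pools. The WT mice had 211 and 225 pericytes, the *Tubb3*-/- mice 356 and 297, and only 24 to 36 per mouse came from the whole-cell libraries. Markers outside the gate fitted the name in part. Levels are given in counts per 1000000 gene UMIs of a class (CPM). *Trpc6* (589 CPM against 10.5), *Vtn* (99.0 against 0.71), *Notch3* (599 against 212), *Pdgfrb* (529 against 121) and *Postn* (1532 against 487) were higher in pericytes than in smooth muscle. *Kcnj8* (24.1 against 59.7), *Abcc9* (71.0 against 94.6) and *Cspg4* (137 against 153) were not. Of the pericytes, 81.9% also had at least 3 UMIs of *Myh11*. *Tubb3* itself was at 23.1 and 16.9 CPM in WT pericytes and at 1.71 and 3.37 CPM in *Tubb3*-/- pericytes. These UMIs come from the 3′ end of the transcript, away from the inserted *Cre*, and *Cre* itself had only 2 UMIs in the 5 classes, both in *Tubb3*-/- mice. Transcripts of *Xist* and of Y-linked genes showed that replicate 1 of each genotype was male and replicate 2 female.

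*Rgs5*, which acts on Gαi and Gαq in vascular cells, was highest in pericytes. Its level was 170.9 and 47.7 CPM in WT pericytes and 156 and 140.4 CPM in *Tubb3*-/- pericytes, a mean of 129 ± 55.4 CPM (SD, n = 4). In smooth muscle it was 30.7 and 20.7 CPM in WT and 22.8 and 16.2 CPM in *Tubb3*-/- mice. Pericytes were thus 5.70-fold above smooth muscle in the means, and the lowest pericyte value lay above the highest of smooth muscle. Endothelium followed at 4.79 CPM, fibroblasts at 1.08 CPM and immune cells at 0.17 CPM, and no neighbours in this order overlapped. WT replicate 2 stood well below the other 3 mice in pericytes but not in smooth muscle. Of the 4307 UMIs of *Rgs5*, 39.7% lay in pericytes, 25.3% in smooth muscle and 26.3% in cells that met several gates.

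*Rgs4*, which like *Rgs5* is a short R4 protein with little beyond its RGS domain, was also highest in pericytes. It reached 76.4 and 102.3 CPM in WT pericytes and 69.7 and 90.4 CPM in *Tubb3*-/- pericytes. Smooth muscle had 43.9, 38.9, 49.3 and 46.3 CPM in the same order of mice, so that pericytes were 1.90-fold higher with no overlap of mice. Fibroblasts (4.45 CPM) and endothelium (3.93 CPM) overlapped with each other, and immune cells had 1.10 CPM. Smooth muscle, with more cells, held 33.5% of the *Rgs4* UMIs and pericytes 16.0%.

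*Rgs16*, an R4 gene that is induced by activation in lymphocytes and other cells, had 67.9 and 37.3 CPM in WT pericytes and 51.0 and 54.5 CPM in *Tubb3*-/- pericytes. Fibroblasts came next, at 25.9 and 19.7 CPM in WT and 41.9 and 37.1 CPM in *Tubb3*-/- mice, and the ranges of the 2 classes overlapped. Smooth muscle (14.3 CPM), immune cells (9.08 CPM) and endothelium (8.28 CPM) overlapped in turn. By number, fibroblasts held 47.3% of the *Rgs16* UMIs and pericytes 5.84%.

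*Rgs6* and the anchor gene *Rgs7bp* ran high in both mural classes. *Rgs6* was at 388 and 597 CPM in WT and 278 and 395 CPM in *Tubb3*-/- pericytes, and smooth muscle had 252 to 348 CPM. These classes overlapped, and so did smooth muscle and endothelium, which had 154 to 304 CPM, while fibroblasts (24.4 CPM) and immune cells (1.83 CPM) were far lower. Its membrane anchor *Rgs7bp* was at 264 and 216 CPM in WT and 235 and 276 CPM in *Tubb3*-/- pericytes. Smooth muscle had 120 to 158 CPM, fibroblasts 38.2 to 47.2 CPM, endothelium 5.21 CPM and immune cells 1.82 CPM, and no neighbours overlapped. *Rgs6* and *Rgs7bp* thus parted in endothelium, where *Rgs6* was 1.97-fold below pericytes and *Rgs7bp* 47.5-fold. At 5.21 CPM, *Rgs7bp* there was also 8.19-fold below fibroblasts. *Gnb5*, the obligate partner of R7 proteins, was at 14.2 CPM in pericytes, 12.9 CPM in smooth muscle, 14.1 CPM in fibroblasts, 9.60 CPM in endothelium and 4.89 CPM in immune cells.

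*Rgs2* and *Rgs3* did not follow the mural pattern. *Rgs2*, the R4 regulator of Gαq that lowers vascular contraction, was at 383 to 482 CPM in pericytes. Smooth muscle was higher within each mouse, but its range of 478 to 740 CPM overlapped with that of pericytes. Fibroblasts (490.1 to 604 CPM) overlapped with smooth muscle and lay above pericytes without overlap. Immune cells had 301 CPM, and endothelium was lowest at 37.3 CPM. *Rgs3*, a longer R4 protein, was highest in endothelium, at 76.8 and 67.5 CPM in WT and 78.4 and 81.6 CPM in *Tubb3*-/- mice. It was 3.85-fold above smooth muscle (19.7 CPM). Smooth muscle, pericytes (17.6 CPM), fibroblasts (16.8 CPM) and immune cells (15.1 CPM or less) each overlapped with the next. The plot of levels by class shows both groups of genes, those with the highest points in pericytes and these 2.

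**Figure D1:**
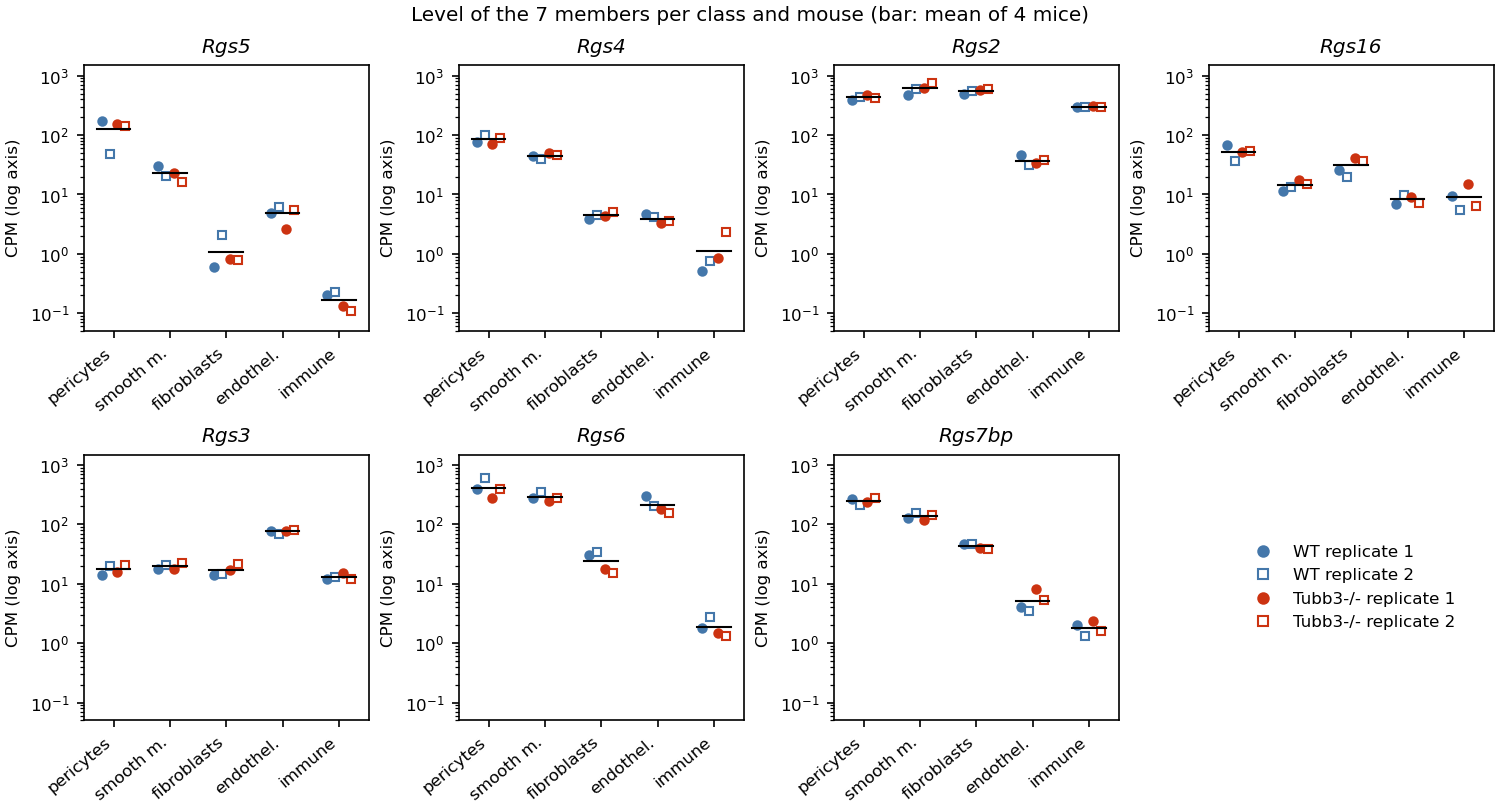
CPM of summed UMIs (log axis) of the 7 genes in 5 gated cell classes, with a point for each of 2 WT and 2 *Tubb3*-/- mice and a bar at the mean of the 4 mice. *Rgs5* fell from 129 CPM in pericytes to 0.17 CPM in immune cells, while *Rgs3* was highest in endothelium (76.1 CPM) and *Rgs2* in smooth muscle (609.6 CPM).

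Shares of cells with a UMI were compared at equal depth. After each cell was thinned to 2000 UMIs, a UMI of *Rgs5* was found in 4.93% to 13.1% of the pericytes of a mouse, 1.94% to 4.11% of smooth muscle and 0.44% to 1.41% of endothelium. In immune cells, which should lack the gene, it was found in 0.07% to 0.12%, and fibroblasts had 0.05% to 0.16%, which overlapped with that background. At 5000 UMIs per cell, where 195 fibroblasts and 1602 immune cells were left out, fibroblasts had 0.28% to 0.57% and immune cells 0.16% or less, without overlap. Without thinning the shares were 12.9% to 26.6% of pericytes and 0.14% to 0.23% of immune cells, at medians of 10278 and 8259 UMIs per cell. Thinning left out 3 pericytes, 14 smooth muscle cells, 30 fibroblasts, 100 endothelial cells and 139 immune cells. *Rgs6* and *Rgs7bp* were far more widespread among pericytes, with thinned shares of 38.0% to 60.5% and 27.4% to 36.5%. For *Rgs4* the thinned share was 11.4% to 15.7% of pericytes and 6.30% to 9.37% of smooth muscle.

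The level of *Rgs5* in pericytes came from few cells. Of 1089 pericytes, 253 had a UMI, the 109 cells with the most UMIs held 88.5% of all *Rgs5* UMIs in the class, and 17 cells held 50% of them. The highest cell, of *Tubb3*-/- replicate 2, had 112 UMIs. The 109 highest cells, ranked anew for each gene, held 89.7% of the UMIs of *Rgs16*, 66.2% of *Rgs3* and 61.3% of *Rgs4*. They held 48.8% of those of *Rgs2*, 42.2% of *Rgs7bp* and 38.6% of *Rgs6*. Levels differ between these genes, and a low level alone raises such a share, but *Rgs3* had fewer UMIs in pericytes than *Rgs5* (219 against 1708) and was less concentrated. Within mice the highest 10% of cells held 84.4% to 93.8% of the *Rgs5* UMIs. This was not particular to pericytes. In smooth muscle 393 of 3942 cells had a UMI of *Rgs5*, and 28 cells held 50% of its 1090 UMIs.

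**Figure D2:**
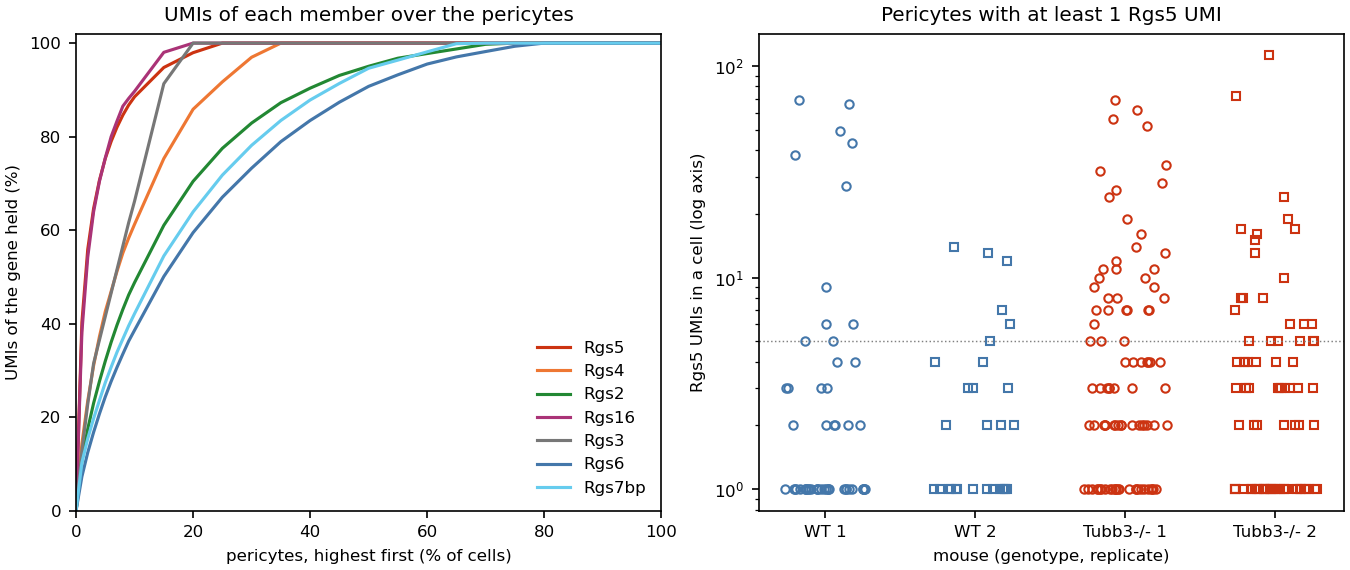
Cumulative percentage of a gene's UMIs (y axis) over the 1089 pericytes ordered from the highest count down (x axis, percentage of cells), with a line for each of the 7 genes. The lines of *Rgs5* and *Rgs16* rise first, with 88.5% and 89.7% of the UMIs in the highest 10% of cells, and that of *Rgs6* rises last, with 38.6%.

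Pericytes with at least 5 UMIs of *Rgs5*, a limit set after the counts were seen, were 11 of 211 and 6 of 225 cells in WT (5.21% and 2.67%), and 34 of 356 and 23 of 297 cells in *Tubb3*-/- animals (9.55% and 7.74%). Together these 74 cells held 81.3% of the UMIs of *Rgs5* in pericytes. Smooth muscle had 40 such cells, fibroblasts 2 and endothelium 2, and 39 were among the cells that met several gates and 3 among those that met none. Set beside the 836 pericytes with no *Rgs5* UMI, and as a description only since the cells were picked by a gene measured in them, they had more of 2 of the 4 other R4 genes and less of the other two. *Rgs4* was at 283 against 58.2 CPM and *Rgs16* at 258 against 32.8 CPM, and each of the 4 mice showed both differences. *Rgs3* was at 0.39-fold, lower in each mouse, but had only 10 UMIs in the 74 cells. These were 0 in each WT mouse and 5 in each *Tubb3*-/- mouse. *Rgs2* was at 296 against 449 CPM, with WT replicate 2 the other way. *Rgs6* was at 401 against 425 CPM and *Rgs7bp* at 411 against 227 CPM, with *Tubb3*-/- replicate 2 the other way for *Rgs7bp*. Most pericyte markers were higher in the means and a few were lower. *Higd1b*, a gene of the gate, was at 521 against 262 CPM, higher in each mouse, and *Vtn*, which encodes vitronectin, at 273 against 72.7 CPM but lower in WT replicate 2 (124 against 146 CPM). *Ndufa4l2* (863 against 523 CPM), also of the gate, and *Pdgfrb* (668 against 482 CPM) were higher in each mouse too. Higher in the means but not in each mouse were *Cox4i2* (1168 against 688 CPM) and *Abcc9* (126 against 65.2 CPM). So were *Trpc6* (815 against 549 CPM) and *Notch3* (758 against 567 CPM). *Cspg4*, which encodes the proteoglycan NG2, was at 94.1 against 147 CPM, *Postn* (periostin) at 1339 against 1465 CPM and *Kcnj8* at 20.9 against 22.7 CPM. Of the contractile genes, *Cnn1* (calponin) was at 84.7 against 529 CPM, *Myh11* at 756 against 1567 CPM and *Acta2* at 4669 against 8659 CPM, each lower in every mouse. *Lmod1*, *Tagln* and *Des* were at 0.64-fold to 0.70-fold, and *Mylk*, the myosin light chain kinase, was at 1010 against 1030 CPM. Markers of other classes in the 2 sets were *Col1a1* at 630 against 1201 CPM, *Dcn* at 85.4 against 342 CPM and the leukocyte gene *Coro1a* at 3.69 against 1.72 CPM. Of the genes that the study named together with *Rgs5*, *Col18a1* was at 401 against 552 CPM and *Tubb3* at 10.9 against 11.8 CPM in the means. *Clstn2*, by which pericytes are divided below, was at 192 against 277 CPM. Median UMIs per cell of the 2 sets were 11936.5 and 10118.5.

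The level moved with how strictly a pericyte was defined. Cells with all 3 of the gate genes (513 cells) had 240 CPM of *Rgs5* on average over the mice, those with 2 of them (576 cells) 55.3 CPM, and cells with 1 of them and at least 3 UMIs of *Myh11*, just outside the gate, 24.5 CPM. *Rgs4* was at 157, 28.9 and 40.4 CPM in these sets, with the cells just outside the gate above those with 2 of the genes. *Rgs2* ran the other way, at 330.1, 518 and 567 CPM. At the smooth muscle limit, cells with 2 UMIs of *Myh11* had 5.19 CPM of *Rgs5*, those with 3 had 3.14 CPM and those with at least 10 had 25.3 CPM.

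Pericytes with a UMI of *Clstn2* (291 cells) and those without (798 cells) differed in several of the genes. *Rgs5* was at 420 and 58.6 CPM in WT and 458 and 406 CPM in *Tubb3*-/- mice with *Clstn2*, and at 115, 40.7, 96.8 and 69.7 CPM without it. *Rgs4* was at 217 against 47.2 CPM in the means, with each mouse higher in the *Clstn2* cells. *Rgs7bp* (106 against 299 CPM) and *Rgs2* (164 against 520 CPM) were lower in the *Clstn2* cells of each mouse. *Rgs6* was at 451 against 395 CPM, and *Rgs16* at 81.0 against 49.0 CPM with a wide spread over the mice (3.82 to 145 CPM). WT replicate 2, whose pericytes had the least *Rgs5*, also had the most *Clstn2* cells, 102 of 225 where the other mice had 43 of 211, 75 of 356 and 71 of 297.

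Within smooth muscle, 703 cells with at least 2 of *Hpse2*, *Ntrk3* and *Ctnna3* carried the most *Rgs6* and *Rgs7bp*. *Rgs6* was at 513 and 718 CPM there in WT and 443 and 441 CPM in *Tubb3*-/- mice, against 263 CPM in 312 cells with 2 of *Actc1*, *Sncg* and *Timp4* and 74.3 CPM in 39 cells with 2 of *Sost*, *Erbb4* and *Mylk4*. For *Rgs7bp* the means were 192, 54.5 and 44.3 CPM. *Rgs4* was lowest in the first of these sets (17.3 CPM, against 52.1 and 68.7 CPM). *Rgs5* did not mark any of them in all mice, since its 84.7 CPM in the set of 39 cells came from WT replicate 2 at 310 CPM while the other 3 mice had 16.3 CPM or less. *Rgs2* was at 877, 903 and 78.4 CPM. In 284 cells with none of these genes *Rgs2* was at 1062 CPM, and 2604 cells that met more than 1 set were left out.

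The *Rgs6* of the endothelium lay in a small set of cells. A UMI was found in 15.7% of 3090 endothelial cells, and 358 cells with at least 3 UMIs held 97.3% of the *Rgs6* UMIs of the class. These cells had high *Car4* (1611 against 74.1 CPM in the 2606 cells with no *Rgs6* UMI), *Ednrb* (771 against 18.5 CPM), *Apln* (293 against 11.6 CPM) and *Tbx2* (433 against 14.9 CPM), genes of the large alveolar capillary cells called aerocytes. They had less *Gpihbp1* (319 against 826 CPM), *Plvap* (192 against 729 CPM) and *Vwf* (77.1 against 518 CPM), which mark general capillary and larger vessel endothelium. *Rgs3* was lower in them, at 36.0 against 83.2 CPM, in each of the 4 mice. The cells were picked by their *Rgs6* count, so the endothelium was also divided by *Car4*, *Ednrb* and *Apln* alone, a division chosen after these values were seen. In the 444 cells with at least 2 of the 3 genes, *Rgs6* was at 2186 and 1126 CPM in WT and 951 and 890 CPM in *Tubb3*-/- mice. It was at 36.9 CPM in the 884 cells with 1 of them and at 10.6 CPM in the 1762 cells with none. The 444 cells made up 12.96% and 14.5% of the endothelial cells in WT and 15.7% and 13.7% in *Tubb3*-/- mice. *Rgs6* therefore lay in all 4 mice in cells with aerocyte genes, and the plot of *Rgs6* in endothelium shows each mouse.

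**Figure D3:**
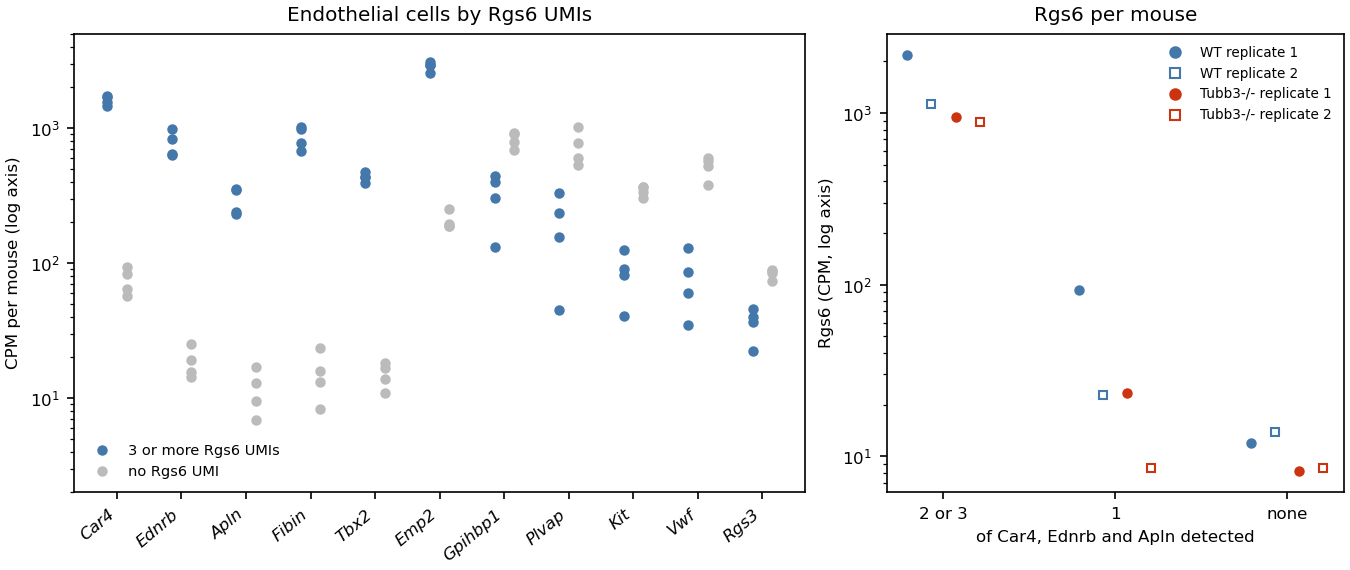
CPM of *Rgs6* (log axis) in endothelial cells divided by how many of *Car4*, *Ednrb* and *Apln* had a UMI, with a point for each WT and *Tubb3*-/- mouse. Every mouse lies between 890 and 2186 CPM where at least 2 of the genes were found and at 93.0 CPM or less elsewhere.

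*Rgs16* was divided in the same way in fibroblasts and immune cells. Fibroblasts with a UMI of *Cthrc1* (2385 cells), a gene of the collagen-producing fibroblasts of fibrotic lungs, had 33.0 and 25.0 CPM in WT and 60.0 and 54.5 CPM in *Tubb3*-/- mice. Those without it (5780 cells) had 23.3, 18.2, 28.5 and 26.8 CPM. Cells with *Cthrc1* made up 23.6% and 19.6% of the fibroblasts in WT and 37.5% and 33.1% in *Tubb3*-/- mice. In immune cells, those with *Cd3e* (T cells, 1197 cells) had 44.6 CPM of *Rgs16* on average, and those with *Cd79a*, *Csf1r* or *Csf3r*, marks of B cells, macrophages and monocytes, and neutrophils, had 2.44, 1.97 and 1.17 CPM. *Rgs2* was at 426 CPM in the *Cd3e* cells and 152 to 253 CPM in the others, and *Rgs5* was at 0.54 CPM or less in all 4 sets.

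Across the whole family, 26 genes were listed (RGS genes, anchors and *Gnb5*), all 26 were measured and 16 reached 10 CPM in a class. Of those 16, 7 were highest in pericytes, 2 in smooth muscle, 3 in endothelium, 4 in immune cells and none in fibroblasts. Besides the genes above, *Rgs17*, of the RZ family, was highest in pericytes at 22.8 CPM and *Rgs7*, the R7 relative of *Rgs6*, in smooth muscle at 20.3 CPM. *Rgs12* (204 CPM) and *Rgs9* (52.1 CPM) were highest in endothelium. *Rgs1* (334 CPM), *Rgs10* (189 CPM), *Rgs19* (40.1 CPM) and *Rgs14* (11.9 CPM), known from leukocytes, were highest in immune cells.

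Among 11355 genes with at least 10 CPM in a class, the genes whose log2(CPM + 1) over the 20 sums of a class and a mouse was most like that of *Rgs5* were *Ate1* (Pearson r = 0.97), *Igf2* (0.96), *Spaar* (0.95), *Dbndd2* (0.95), *Ppp1r12c* (0.94), *Aif1l* (0.94), *Rsu1* (0.94) and *Sema5b* (0.94). The sums share mice, pools and gates and are not independent, so these values are a description. *Ate1* was at 77.0 CPM in pericytes and 25.4 CPM in immune cells, a far smaller range than that of *Rgs5*. *Spaar*, which encodes a small regulatory polypeptide, fell more steeply, from 37.5 CPM in pericytes to 5.89 CPM in smooth muscle and 0.55 CPM in immune cells. For the other genes of the group, r with *Rgs5* was 0.94 for *Rgs4*, 0.83 for *Rgs6*, 0.80 for *Rgs7bp*, 0.56 for *Rgs16*, 0.18 for *Rgs2* and 0.02 for *Rgs3*.

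The comparison of *Tubb3*-/- with WT mice asks what the loss of β-III tubulin does to activated pericytes and the cells around them. UMIs were summed per mouse and class and tested with edgeR's quasi-likelihood test over all genes, with Benjamini-Hochberg adjustment. It rests on 2 mice of each genotype. In pericytes none of the 7 genes passed, where 0.00868% of the genes tested did (1 of 11524, *Slurp1*, lower in *Tubb3*-/- mice) and 770 genes had an unadjusted p under 0.05. DESeq2 called 6 genes and none of these 7. No gene of the group had both *Tubb3*-/- mice on one side of both WT mice, where 37.3% of all genes did. *Rgs5* had a log2 fold change of 0.42 (SE 0.51, adjusted p = 0.863), its WT mice lying on both sides of the *Tubb3*-/- mice at 170.9 and 47.7 CPM. *Rgs6* had -0.54 (SE 0.25, adjusted p = 0.728), and the other 5 genes lay between -0.15 and 0.17. The gene *Col18a1*, which encodes the collagen that gives rise to endostatin and which the study named together with *Rgs5*, was at 507 and 328 CPM in WT and 708 and 576 CPM in *Tubb3*-/- pericytes, with a log2 fold change of 0.62 (SE 0.28, adjusted p = 0.728).

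**Figure D4:**
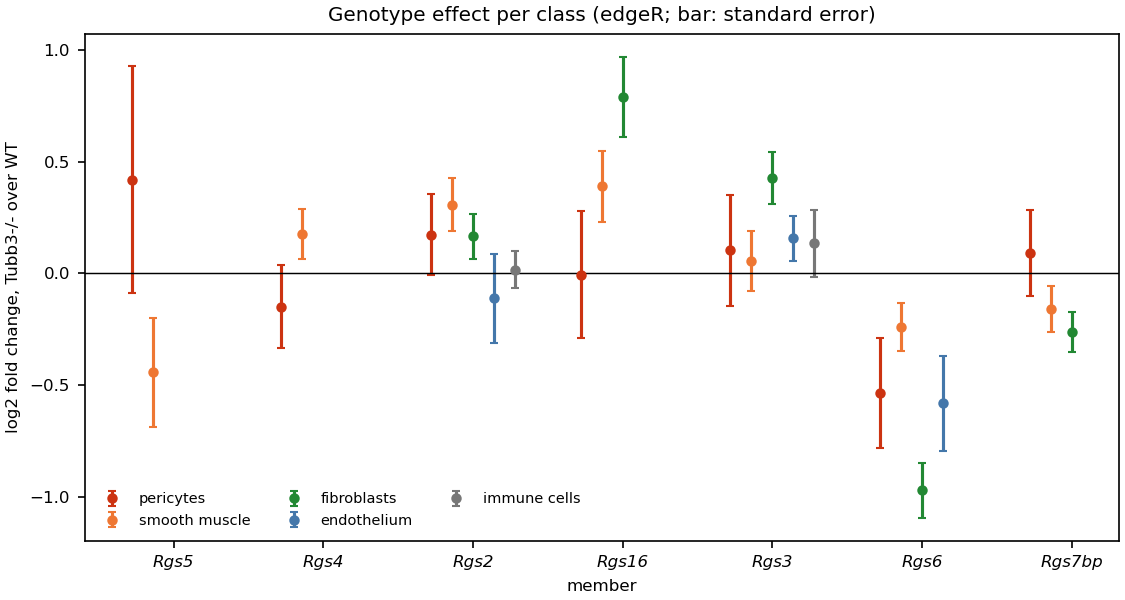
Log2 fold change of *Tubb3*-/- against WT mice with its standard error from edgeR for each of the 7 genes in each class where its mean was at least 10 CPM. The values run from -0.97 (*Rgs6* in fibroblasts) to 0.79 (*Rgs16* in fibroblasts), and none passed an adjusted p of 0.05.

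The value of *Rgs5* in pericytes depended on which pericytes and which mice were counted. The mural-enriched libraries gave 191 and 52.0 CPM in WT and 111 and 113 CPM in *Tubb3*-/- mice, for a log2 fold change of -0.14. The whole-cell libraries, with 32, 25, 36 and 24 pericytes, gave 60.7 and 13.4 CPM in WT and 638 and 445 CPM in *Tubb3*-/- mice, from 21, 3, 252 and 130 UMIs. There the log2 fold change of 3.73 passed edgeR's test (adjusted p = 0.0227), in a fit that called 0.0923% of its genes (5 of 5415). Pericytes with fewer than 3 UMIs of *Myh11*, a set added after the data were seen, had 66.4 and 14.9 CPM in WT and 424 and 415 CPM in *Tubb3*-/- mice, for a log2 fold change of 3.52 (adjusted p = 0.0484 in edgeR), where 0.0347% of genes were called (2 of 5757, *Rgs5* and *Hhip*). These sets rest on few cells. In the second set, leaving out the 1 cell with the most *Rgs5* of each mouse gave 37.1, 11.3, 236 and 60.6 CPM, and in the whole-cell libraries it gave 44.4, 9.43, 476 and 215 CPM. Without WT replicate 1, the log2 fold change over both libraries was 1.71 with an adjusted p of 5.21e-13 in edgeR, in a fit that called 8.85% of all genes (1093 of 12353). *Rgs6* passed there as well (-0.77, adjusted p = 0.00395). Without WT replicate 2 the value of *Rgs5* was -0.24. In such fits the lone WT mouse is assumed to vary like the *Tubb3*-/- mice. The plot of *Rgs5* by set of pericytes shows these values.

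**Figure D5:**
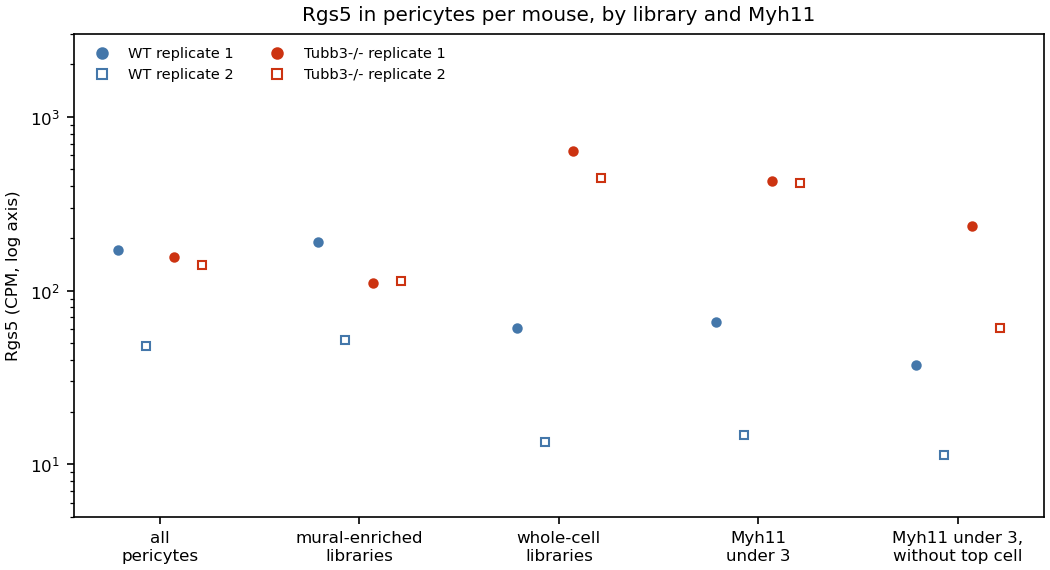
CPM of *Rgs5* in sets of pericytes, with a point for each WT and *Tubb3*-/- mouse. The *Tubb3*-/- mice lie above both WT mice in the whole-cell libraries (638 and 445 against 60.7 and 13.4 CPM) and among cells with few *Myh11* UMIs, and between the WT mice in the mural-enriched libraries.

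In smooth muscle, too, none of the 7 genes passed, and 0.724% of genes did (104 of 14357, 71 higher and 33 lower in *Tubb3*-/- mice). DESeq2 called 217 genes, and 1860 had an unadjusted p under 0.05 in edgeR. *Tubb3* was among those called (log2 fold change -3.82, adjusted p = 0.0117). *Rgs2* was at 478 and 604 CPM in WT and 617 and 740 CPM in *Tubb3*-/- mice (log2 fold change 0.31, SE 0.12, adjusted p = 0.344), and *Rgs16* at 11.5 and 13.2 against 17.7 and 14.8 CPM (0.39, SE 0.16, adjusted p = 0.370). *Rgs5* had -0.44 (SE 0.25, adjusted p = 0.520) and *Rgs6* -0.24 (adjusted p = 0.423). With the replicate number, and so the sex of the mice, as a block, *Rgs2* (0.31, adjusted p = 0.0184) and *Rgs5* (-0.42, adjusted p = 0.0383) passed, in an edgeR fit that called 5.27% of genes. *Rgs2*, *Rgs16* and *Rgs4* had both *Tubb3*-/- mice above both WT mice, 3 of 7 genes where 42% of all genes did not overlap in either direction. The difference between the effects in pericytes and smooth muscle was tested with mouse as a block. For *Rgs5* the difference was 1.00 on the log2 scale (SE 0.35, adjusted p = 0.813 in edgeR), and edgeR called 0% of 13443 genes, with 774 at an unadjusted p under 0.05 and 6 called by DESeq2. Without WT replicate 1 it was 1.79 for *Rgs5* (adjusted p = 6.46e-04) and 0.59 for *Rgs7bp* (adjusted p = 0.0248), in an edgeR fit that called 4.64% of genes.

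In fibroblasts, *Rgs6* and *Rgs16* had mice of the genotypes well apart but did not pass the main test. *Rgs6* was at 30.9 and 33.8 CPM in WT and 17.9 and 14.96 CPM in *Tubb3*-/- mice, for a log2 fold change of -0.97 (SE 0.12, adjusted p = 0.0795). *Rgs16* was at 25.9 and 19.7 against 41.9 and 37.1 CPM, a log2 fold change of 0.79 (SE 0.18, adjusted p = 0.135). Neither passed edgeR's test, which called 0% of 16882 genes, with 3412 at an unadjusted p under 0.05. Both passed in DESeq2 (adjusted p = 1.56e-05 for *Rgs6* and 0.00785 for *Rgs16*), which called 5.35% of genes (815 of 15245). They also passed edgeR's test without WT replicate 1 (adjusted p = 0.0101 and 0.00666) and without WT replicate 2 (0.0137 and 0.0443), in fits that called 6.65% and 4.13% of all genes. With the replicate block the adjusted p was 0.0235 for *Rgs6* and 0.0245 for *Rgs16* in edgeR, where 7.09% of genes were called. The share of *Cthrc1* cells, given above, was also higher in both *Tubb3*-/- mice, and its part in the *Rgs16* value of the whole class was not tested. *Rgs3* had 0.43 (adjusted p = 0.160), *Rgs7bp* -0.26 (adjusted p = 0.204) and *Rgs2* 0.16 (adjusted p = 0.404) in edgeR. For 5 of the 7 genes the mice of the genotypes did not overlap, where 49.9% of all genes did not. Among *Cthrc1* cells, *Rgs7bp* was at 24.5 and 25.1 CPM in *Tubb3*-/- and 40.3 and 38.8 CPM in WT mice, while its genotypes overlapped among the other fibroblasts, a contrast that was not tested.

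In endothelium, *Rgs6* was at 304 and 203 CPM in WT and 183 and 154 CPM in *Tubb3*-/- mice (log2 fold change -0.58, SE 0.21, adjusted p = 0.352). It passed edgeR's test with the replicate block (-0.56, adjusted p = 0.0216), in a fit that called 4.38% of genes. *Rgs3* had 0.16 and *Rgs2* -0.11. The mice did not overlap for 4 of the 7 genes, where 45.5% of all genes did not. EdgeR called 0% of 14048 genes, with 1855 at an unadjusted p under 0.05 and 211 called by DESeq2. Epithelial markers (4 genes, none at 0) summed to 9768 and 3027 CPM in WT and 3998 and 2169 CPM in *Tubb3*-/- endothelium, and their part in these values was not tested. In immune cells, where edgeR called 0.00642% of genes (1 of 15574), *Rgs2* had a log2 fold change of 0.02 and *Rgs3* of 0.13.

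Markers of another class moved with genotype in the mural gates. The 5 fibroblast markers outside the gate, none of them at 0, summed to 1197 and 1301 CPM in WT and 1966 and 1715 CPM in *Tubb3*-/- pericytes, and to 1135 and 1036 against 2076 and 2001 CPM in smooth muscle. In pericytes the 5 endothelial markers summed to 15.7 to 27.1 CPM and the 6 immune markers to 12.6 to 24.4 CPM, against at least 3205 and 4299 CPM in their own classes. The 4 epithelial markers summed to 1785 CPM in the pericytes of WT replicate 1 and to 201 to 277 CPM in those of the other mice. The part of these cells or transcripts in the genotype values was not tested.

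The receptors, G proteins and effectors that RGS proteins work with were read from the same fits. In pericytes none of the listed genes passed, where 0.00868% of all genes tested did (1 of 11524). The counts were 0 of 13 genes of the RGS family, 0 of 13 receptors of Gq and G12/13 and 0 of 9 of Gi. For the other lists they were 0 of 8 Gs receptors, 0 of 18 G protein subunits and 0 of 22 effectors. The median log2 fold changes of the lists, in this order, were -0.01, -0.17, 0.14, 0.25, -0.05 and -0.13, beside -0.0046 over all genes. *Ednra*, the receptor of endothelin on contractile cells, was at 312 CPM (log2 fold change -0.17), the thrombin receptor *F2r* at 254 CPM (-0.35) and *S1pr3* at 129 CPM (-0.62, adjusted p = 0.728). Of the Gi receptors, *P2ry14* was at 167 CPM and the neuropeptide Y receptor *Npy1r* at 105 CPM. *Gnas*, encoding Gαs, was at 1257 CPM (-0.09). *Prkg1*, the cGMP-dependent kinase, was at 2472 CPM (-0.67, adjusted p = 0.728), with 2250.2 and 3850.4 CPM in WT and 1706 and 2080.4 CPM in *Tubb3*-/- mice.

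In smooth muscle 3 of the 102 listed genes tested (2.94%) passed edgeR's test, each higher in *Tubb3*-/- mice, where 0.724% of all genes passed. The lists were chosen with results of these data known, so this share is a description. *Lpar1*, a receptor of lysophosphatidic acid, was 1 of 19 Gq and G12/13 receptors (log2 fold change 0.77, adjusted p = 0.0435). *P2ry14*, a receptor of UDP-sugars, was 1 of 11 Gi receptors (0.64, adjusted p = 0.0482), and *Adcy7*, an adenylyl cyclase, was 1 of 23 effectors (0.66, adjusted p = 0.0499). None of 12 Gs receptors, 20 G protein subunits and 17 genes of the RGS family passed. The median log2 fold changes of the lists were -0.10, 0.16 and -0.10 for these first 3, and -0.04, 0.03 and 0.06 for the last, beside 0.00 over all genes. Each of the 3 calls lay close to the threshold, and stricter gates called no gene in smooth muscle.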

How the data were processed

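For each mouse and library the authors deposited raw UMI counts per gene and cell, made with Cell Ranger 7.1.0 on mm10 and split by tag, with no normalization. Whether counting used strand is not given in the sources used here. Tag counts were set aside. Cells with 200 to 7500 genes and at most 15% mitochondrial UMIs were kept, after the study's limits. Gates followed the rule stated above, cells meeting several gates were dropped, which served against doublets, and UMIs were summed per mouse and class over both libraries. Sums were tested in R 4.3.3 with edgeR 4.0.16 (filterByExpr, TMM, quasi-likelihood F test, Benjamini-Hochberg over all genes, threshold 0.05), with DESeq2 1.42.0 as an alternative. Mice, not cells, were the replicates. The tests were checked on simulated data. Shares of cells were taken after thinning to 2000 UMIs. The genes and lists were chosen with earlier results of these data known. Named were the 7 genes, other RGS genes of at least 10 CPM, the 8 genes most like *Rgs5*, and of each list the called genes or the 3 highest, and genotype effects are given where a gene had at least 10 CPM. Markers and genes outside this were named after their values were seen. Other gates, limits, filters, libraries and left-out mice were tried. No protein sequence was used here.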

Additional observations from a re-analysis of the deposited data

Results flagged for a closer look

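Signal of the group was also found in cells that went into no comparison. In the 6044 cells that met more than 1 gate, *Rgs5* was at a mean of 9.03 CPM (7.19 to 10.9 CPM over the 4 mice, 1132 UMIs) and *Rgs4* at 14.9 CPM (13.6 to 15.9 CPM, 1796 UMIs), above the levels of both genes in immune cells (0.17 and 1.10 CPM). Of these cells, 370 met the pericyte gate together with the fibroblast gate *Pdgfra*.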

How the results depend on the processing

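Of 375 values of the log2 fold change of the 7 genes under other settings, 317 kept their direction and their side of the threshold and 22 came to pass the test. Leaving aside left-out mice, the fits with such passes called 0.0347% of all genes (pericytes with few *Myh11* UMIs) to 7.09% (fibroblasts with the replicate block). The other 36 values changed sign. In pericytes *Rgs16* turned to 0.0023 (DESeq2), 0.00062 (RLE normalization), 0.033 (no filter on low counts), 0.030 (the replicate block), 0.92 (few *Myh11* UMIs), 0.26 (stricter gates) and 0.76 (whole-cell libraries), *Rgs4* to 0.59 (few *Myh11* UMIs) and 0.42 (whole-cell libraries), *Rgs7bp* to -0.036 (gates on thinned UMIs) and -0.85 (few *Myh11* UMIs), and *Rgs5* to -0.14 (mural-enriched libraries). In the whole-cell libraries *Rgs16* and *Rgs6* turned to -0.011 and 0.21 in smooth muscle. In endothelium *Rgs2* turned to 0.19 (thinned gates), 0.12 (highest Scrublet scores removed) and 0.40 (mural-enriched libraries), and *Rgs3* to -0.062 (mural-enriched libraries). Leaving out 1 mouse gave ranges in pericytes of -0.40 to 0.57 for *Rgs16*, -0.073 to 0.31 for *Rgs3*, -0.30 to 0.024 for *Rgs4*, -0.24 to 1.71 for *Rgs5*, -0.087 to 0.31 for *Rgs7bp*, in smooth muscle of -0.080 to 0.18 for *Rgs3*, in endothelium of -0.38 to 0.19 for *Rgs2*, in immune cells of -0.032 to 0.070 for *Rgs2*, -0.045 to 0.29 for *Rgs3*, and for the difference between pericytes and smooth muscle of -0.83 to 0.27 for *Rgs16*, -0.35 to 0.10 for *Rgs2*, -0.014 to 0.21 for *Rgs3*, -0.011 to 0.59 for *Rgs7bp*. The cause of these changes was not tested.

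The number of genes called depended strongly on the setting. In the order pericytes, smooth muscle, fibroblasts, endothelium and immune cells, DESeq2 called 6, 217, 815, 211 and 72 genes, no filter on low counts 264, 968, 640, 662 and 35, and stricter gates 0, 0, 0, 96 and 0. Gates on thinned UMIs gave 0, 12, 0, 0 and 0, the mural-enriched libraries 1, 119, 0, 6 and 0, and the whole-cell libraries 5, 3, 0, 0 and 5. Removal of the 5% of cells with the highest Scrublet scores, chosen after seeing the data because the automatic threshold marked 1 of 14160 cells of a pool, gave 0 in pericytes, and few *Myh11* UMIs, also added later, gave 2. Leaving out 1 mouse gave 1 to 1093 genes in pericytes, 63 to 550 in smooth muscle, 0 to 1179 in fibroblasts, 6 to 47 in endothelium, 1 to 79 in immune cells and 0 to 646 for the difference between pericytes and smooth muscle, where DESeq2 called 6. Same-numbered mice of the genotypes shared a number and, by their transcripts, a sex, and with 2 pairs the correlation of the replicate differences was 0.26, 0.27, 0.30, 0.31 and 0.09. With the replicate block 9, 756, 1197, 616 and 4 genes were called, and so were *Rgs6* (-0.98) and *Rgs16* (0.80) in fibroblasts, *Rgs2* (0.31) and *Rgs5* (-0.42) in smooth muscle and *Rgs6* (-0.56) in endothelium. Without the filter on low counts the same 5 values passed. Those fits called far more genes than the main ones, 968 of 22875 in smooth muscle, 640 of 25606 in fibroblasts and 662 of 22363 in endothelium.

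The order of classes was read over 11 settings, namely the main one, other gates, cell limits and libraries, and means with 1 mouse left out. Pericytes lay above smooth muscle in all 11 for *Rgs5* (5.05-fold to 18.5-fold), *Rgs4* (1.70-fold to 2.92-fold), *Rgs16*, *Rgs6* and *Rgs7bp*. For *Rgs2* and *Rgs3* they did so in none. Of 357 levels 44 moved by more than the spread over mice, and all 70 shares of cells moved with the depth of thinning. The 24 to 36 pericytes per whole-cell library, and the 1708 UMIs of *Rgs5* in pericytes, limit what can be said of *Rgs5* in any 1 library.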

Other observations

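Among the immune cells, 2 genes that were not part of the group differed in level by kind of cell. *Rgs1*, a regulator of chemokine receptor signals in lymphocytes, was at 363 CPM in cells with *Cd3e*, 305 CPM in cells with *Csf1r*, 224 CPM in cells with *Csf3r* and 128 CPM in cells with *Cd79a*. *Rgs10*, known from T cells and microglia, was at 262, 158, 100.8 and 62.7 CPM in the same order. In *Cd3e* cells *Rgs1* was at 309 and 295 CPM in WT and 439 and 411 CPM in *Tubb3*-/- mice, which was not tested. How many of all genes had genotypes that did not overlap was not counted in immune cells. In the other classes that share ran from 37.3% (pericytes) to 49.9% (fibroblasts).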
